A study of Mus musculus with 6 samples.

Results

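The Lrrtm and Slitrk genes encode synaptic organisers, transmembrane proteins with leucine-rich repeats that sit on neurons and instruct the partner cell to build a synapse. The 10 mouse genes of these families, Lrrtm1 to Lrrtm4 and Slitrk1 to Slitrk6, form a list chosen with earlier results of these data known. Every probe set annotated to 1 of them alone was used. This gave 20 of the 45101 probe sets, 12 for the 4 Lrrtm genes and 8 for the 6 Slitrk genes, and the genes are 10 of 18193 genes measured. Where a gene has several probe sets, the brightest by mean log2 intensity over the 6 arrays is called the leading one. Expression was read on 6 Affymetrix arrays, 2 in each of 3 groups, from sorted retinal ganglion cells (RGCs), the neurons whose axons form the optic nerve. The Hb9 group holds GFP-positive, Thy1-positive cells named Hb9 RGCs in the labels. The Drd4 group holds GFP-positive, Thy1-positive cells named Drd4 RGCs, and the Thy1 group holds Thy1-positive cells, named RGCs with no subtype. All were taken from retinas of C57BL/6 mice at postnatal day 6, dissociated with papain and sorted, and their RNA was amplified in 2 rounds. The series text says that a group's replicates came from separate litters. The labels do not say how many animals were pooled or which construct drives GFP. The Thy1 group was sorted on Thy1 alone, so it can hold RGCs of any type, those of the GFP lines included.

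LRRTM proteins lie on the postsynaptic side, where LRRTM1 and LRRTM2 bind presynaptic neurexins and LRRTM3 and LRRTM4 also bind heparan sulphate proteoglycans such as glypicans. SLITRK proteins bind presynaptic receptor tyrosine phosphatases of the LAR family, with SLITRK3 known for inhibitory synapses and several others for excitatory ones. In the retina, LRRTM4 is known from inhibitory synapses on the terminals of rod bipolar cells. GFP in the Hb9 and Drd4 mouse lines is known to mark types of ON-OFF direction-selective ganglion cell that prefer different directions of motion. At this age RGC dendrites are still sorting into layers and receiving their synapses.

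The median intensity per array ran from 45.5 to 47.7. A background reference was set on each array as the highest log2 intensity among 27 probe sets for Bacillus subtilis genes, which mouse RNA lacks. It ran from 4.95 to 5.38, and 68.2% to 78.9% of genes read above it. Of 11 measured RGC markers, 10 were above the reference on all 6 arrays. Rbpms averaged 10.38 (Hb9), 10.58 (Drd4) and 10.46 (Thy1) on the log2 scale. Against Thy1, limma at an adjusted p of 0.05 called 1 of the 11 higher in Hb9, and 3 higher and 1 lower in Drd4. Between the lines, 1 was higher and 1 lower in Hb9 than in Drd4, with log2 differences of the 11 from -1.16 to 1.93. In these comparisons 6.71%, 5.47% and 6.12% of all genes were called. Of 6 direction-selective ganglion cell markers, 3 were called higher and 1 lower than Thy1 in each line. Between the lines, 2 of them were higher and 2 lower in Hb9 than in Drd4. Trhr, a marker of the Drd4 type, stood at 9.82 in Drd4, against 3.93 in Hb9 and 5.03 in Thy1. It was the 1 called lower than Thy1 in Hb9. Col25a1 was the 1 called lower in Drd4, at 6.93, against 10.96 in Hb9 and 9.24 in Thy1. Of 8 amacrine cell markers, Gad1, Tfap2b, Slc32a1 and Slc18a3 read at or below the reference on all 6 arrays, while 2, Gad2 and Slc6a9, read above it on all 6.

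Markers of microglia, vessels, Muller glia, horizontal cells and dividing cells summed higher on both Thy1 arrays than on any array of either line, which amacrine, bipolar and photoreceptor markers did not. Of all genes, 3.19% were called lower than Thy1 in Hb9 and 3.96% in Drd4. The summed intensity of 10 microglial markers was 1607 to 1968 in Hb9 and 1022 to 2867 in Drd4, against 6373 to 10970 in Thy1. In each line 9 of the 10 were called lower, and none was at or below the reference on all arrays. For 9 endothelial and pericyte markers the sums were 1572 to 1950 in Hb9 and 293 to 1147 in Drd4, against 7721 to 8673 in Thy1. There 3 were called lower in Hb9 and 4 in Drd4, and Pecam1, Cldn5 and Tek were at or below the reference on all arrays. For 7 immediate-early and dissociation genes the sums were 1690 to 1865 in Hb9 and 1326 to 1522 in Drd4, against 2492 to 3723 in Thy1, with 4 and 5 called lower. The sums of 8 Muller glia and progenitor markers were 1667 to 1710 in Hb9 and 1729 to 2007 in Drd4, against 3009 to 3113 in Thy1, with 2 called lower in each line. Those of 5 dividing cell markers were 164 to 187 in Hb9 and 135 to 146 in Drd4, against 300 to 501 in Thy1, with 4 called lower in each line. For 5 horizontal cell markers they were 247 to 253 in Hb9 and 178 to 198 in Drd4, against 321 to 385 in Thy1, with 1 and 2 called lower. The part of these cells and genes in the differences from Thy1 given next was not tested. In RNA from a sorted population, fewer cells that carry a transcript and less transcript per cell cannot be told apart. Between Hb9 and Drd4, limma called genes at an adjusted p of 0.05 as follows. Of the microglial, vascular and immediate-early genes it called 0 of 10, 0 of 9 and 0 of 7. It called 1 of the 8 Muller glia and progenitor markers and 1 of the 5 dividing cell markers, both higher in Hb9. Of the 5 horizontal cell markers 0 were called. Over all genes 6.12% were called there. In the order of these lists, 0, 3, 1, 1, 1 and 2 had an unadjusted p under 0.05, for which no share over all genes is given.

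Lrrtm1, the neurexin-binding organiser of excitatory synapses, was high in Hb9 cells and low in Drd4 cells. Its leading probe set read 7.84 and 7.89 on the log2 scale in Hb9, 6.32 and 5.63 in Drd4, and 6.73 and 6.94 in Thy1. No array of 1 group fell within the range of another, and the order was Hb9, then Thy1, then Drd4. Lrrtm1 was 3.70-fold higher in Hb9 than in Drd4 (log2 difference 1.89 ± 0.21, SE; limma adjusted p = 0.000683) and 2.05-fold higher in Hb9 than in Thy1 (1.03 ± 0.21, adjusted p = 0.0209). In Drd4 it was lower than in Thy1 by a narrow call (-0.86 ± 0.21, adjusted p = 0.0479). That call was lost in 12 of 15 alternative treatments of the data, with adjusted p-values up to 0.272, which was reached without Drd4 replicate 2. The call of a rise over Thy1 was lost without Hb9 replicate 1 (difference 1.06), Hb9 replicate 2 (1.01) or Thy1 replicate 1 (0.93). It was also lost when the Lrrtm1 probe sets were averaged (0.26, adjusted p = 0.265). The difference between the lines passed in all 15 alternatives.

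Lrrtm2, which also binds neurexins at excitatory synapses, was low in Hb9 cells. It read 6.06 and 6.90 in Hb9, 8.11 and 7.60 in Drd4, and 8.48 and 8.43 in Thy1. Both Hb9 arrays lay below all others, and both Drd4 arrays lay below both Thy1 arrays. Hb9 was lower than Thy1 by 3.93-fold (-1.98 ± 0.26, adjusted p = 0.00295), a call that passed in all 15 alternatives, and lower than Drd4 by 2.60-fold (-1.38 ± 0.26, adjusted p = 0.0133). The call between the lines was lost without Hb9 replicate 1 (difference -0.96) and without Drd4 replicate 1 (-1.12). It was also lost when the Lrrtm2 probe sets were averaged (-0.56, adjusted p = 0.0921). Drd4 and Thy1, the neighbours at the top of the order, were not distinguished (-0.60 ± 0.26, adjusted p = 0.331).

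Lrrtm3, a relative that binds neurexins and heparan sulphate, was at the background in Drd4 cells. Its leading probe set read 5.74 and 5.74 in Hb9, 4.60 and 4.78 in Drd4, and 5.80 and 6.34 in Thy1. Both Drd4 arrays were below the reference of their own array, and all 4 other arrays were above theirs. Drd4 was therefore at least 2.00-fold lower than Thy1 (adjusted p = 0.00132), and Hb9 was at least 1.59-fold higher than Drd4 (adjusted p = 0.00766). Both calls passed in all 15 alternatives. Hb9 and Thy1 were not distinguished (-0.33 ± 0.18, 95% interval -0.73 to 0.07, adjusted p = 0.308).

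Lrrtm4, the glypican-binding member, was lower in Hb9 cells than in Drd4 cells. It read 4.74 and 5.66 in Hb9, 6.72 and 6.29 in Drd4, and 5.92 and 6.12 in Thy1. The groups did not overlap, and the lower Hb9 array was below the background reference. Lrrtm4 was 2.47-fold lower in Hb9 than in Drd4 (-1.31 ± 0.27, adjusted p = 0.0187). Leaving out Hb9 replicate 1 (adjusted p = 0.107) or Drd4 replicate 1 (0.0676) ended this call. Against Thy1 neither Hb9 (-0.83 ± 0.27, adjusted p = 0.0975) nor Drd4 (0.48 ± 0.27, adjusted p = 0.495) passed. The Hb9 difference from Thy1 did pass without Hb9 replicate 2 (adjusted p = 0.0174) and with the mean of both probe sets (0.0425).

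**Figure D1:**
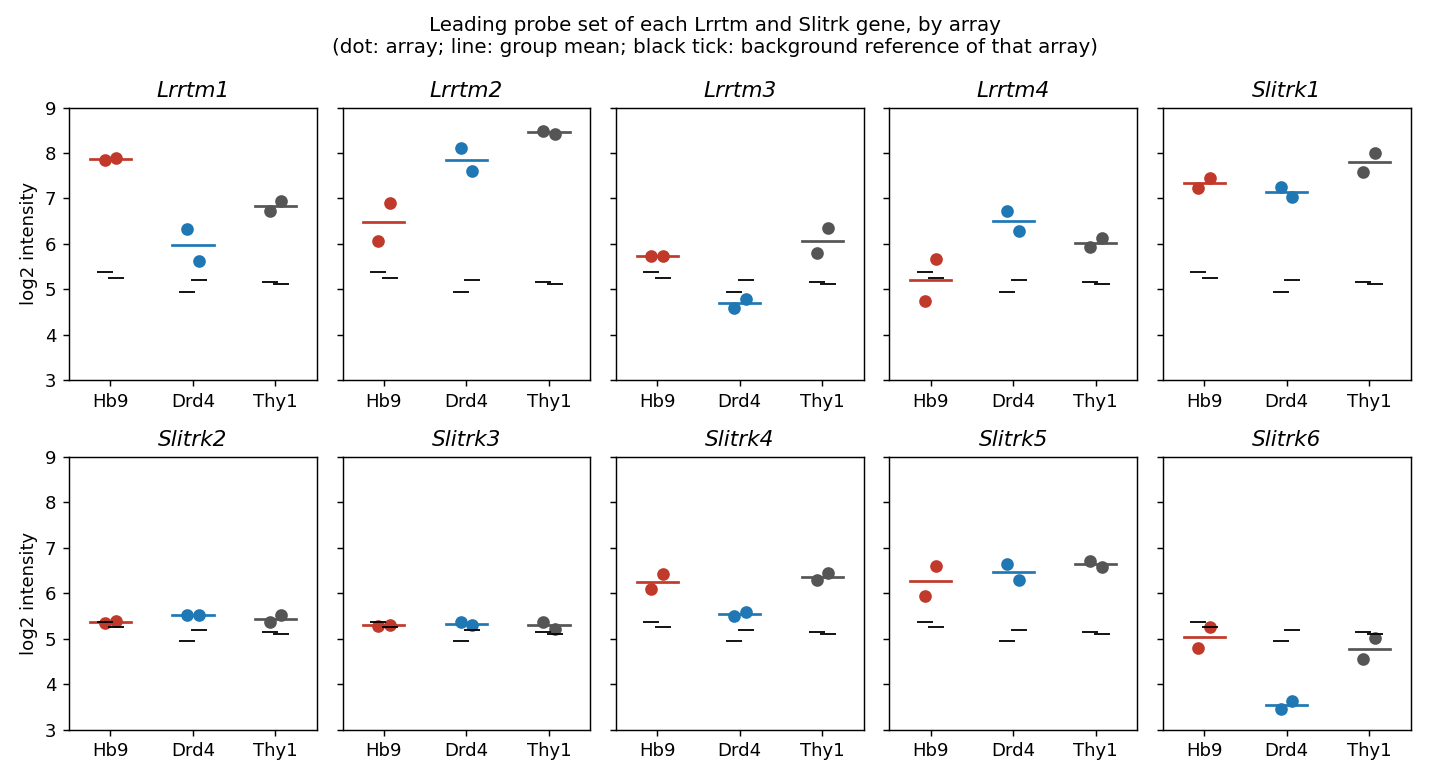
Log2 intensity (vertical axis) of the leading probe set of each gene in Hb9, Drd4 and Thy1 cells. Each dot is 1 array, each coloured line a group mean and each black tick the background reference of that array. Lrrtm1 is highest in Hb9 and lowest in Drd4, Lrrtm2 and Lrrtm4 are lowest in Hb9, and Lrrtm3, Slitrk4 and Slitrk6 are lowest in Drd4. Slitrk6 exceeds the reference on only 1 array.

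Lrrtm1 and Lrrtm4 differed in opposite directions between the lines, and Lrrtm3 differed in the direction of Lrrtm1, so the sequences at the starts of these 3 genes are shown. They come from the RefSeq promoter table of build GRCm38.p6, run from 250 bases before to 50 bases after an annotated start, and are written 5′ to 3′ along the strand of the gene. Of the 10 genes 8 were in that table, with 10 starts in all, and Lrrtm2 and Slitrk4 were not matched. Capitals mark matches on either strand to CANNTG, the E-box read by basic helix-loop-helix factors, TAATTA, a homeodomain core, TATAAA, the TATA box, and GGGCGG, the GC box. The Lrrtm1 start spans chr6:77242227-77242526 on the plus strand and the Lrrtm3 start chr10:64090206-64090505 on the minus strand. The Lrrtm4 starts lie on the plus strand at chr6:80018627-80018926 and chr6:80019393-80019692.
Lrrtm1: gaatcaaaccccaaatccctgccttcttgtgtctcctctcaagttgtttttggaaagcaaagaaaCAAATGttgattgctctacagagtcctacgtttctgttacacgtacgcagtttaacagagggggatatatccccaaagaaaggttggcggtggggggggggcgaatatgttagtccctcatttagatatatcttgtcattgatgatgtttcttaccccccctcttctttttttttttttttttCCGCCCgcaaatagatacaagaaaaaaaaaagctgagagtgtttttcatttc
Lrrtm3: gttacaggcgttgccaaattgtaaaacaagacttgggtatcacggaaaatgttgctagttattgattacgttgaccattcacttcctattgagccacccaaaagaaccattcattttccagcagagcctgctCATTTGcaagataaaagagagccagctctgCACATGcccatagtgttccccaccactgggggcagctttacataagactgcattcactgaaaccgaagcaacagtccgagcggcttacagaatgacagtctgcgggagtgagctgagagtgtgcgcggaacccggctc
Lrrtm4, first start: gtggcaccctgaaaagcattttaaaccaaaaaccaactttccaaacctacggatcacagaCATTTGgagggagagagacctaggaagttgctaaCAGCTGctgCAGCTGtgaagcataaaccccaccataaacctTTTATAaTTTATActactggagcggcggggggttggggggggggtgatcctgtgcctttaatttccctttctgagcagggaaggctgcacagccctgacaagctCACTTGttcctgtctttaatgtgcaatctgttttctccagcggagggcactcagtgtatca
Lrrtm4, second start: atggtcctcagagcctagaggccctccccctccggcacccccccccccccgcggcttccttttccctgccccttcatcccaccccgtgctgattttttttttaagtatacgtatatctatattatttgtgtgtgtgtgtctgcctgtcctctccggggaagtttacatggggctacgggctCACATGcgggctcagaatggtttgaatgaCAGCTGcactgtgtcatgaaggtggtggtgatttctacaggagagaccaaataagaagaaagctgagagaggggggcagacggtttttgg
Lrrtm1 held 1 E-box and 1 GC box, Lrrtm3 held 2 E-boxes, and the Lrrtm4 starts held 4 and 2 E-boxes, with 2 TATA box matches in the first. No match of 1 motif overlapped one of another. Over the 32851 windows of 300 bases in the table, 72.3% held CANNTG, 5.29% TAATTA, 13.6% TATAAA and 35.7% GGGCGG. The GC content was 40.7% for Lrrtm1, 48.7% for Lrrtm3, and 48.7% and 53.3% for Lrrtm4, where the median over all windows was 52.7%. TAATTA was found in none of the 10 windows of these genes.

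Slitrk4, which like its relatives carries leucine-rich repeats outside the cell, was low in Drd4 cells. It read 6.10 and 6.42 in Hb9, 5.49 and 5.59 in Drd4, and 6.30 and 6.44 in Thy1. Both Drd4 arrays were below all others, while Hb9 and Thy1 overlapped. Slitrk4 was 1.77-fold lower in Drd4 than in Thy1 (-0.83 ± 0.16, adjusted p = 0.0109), a call lost without Thy1 replicate 2 (adjusted p = 0.0785). It was 1.64-fold higher in Hb9 than in Drd4 (0.72 ± 0.16, adjusted p = 0.0250), a call lost without Hb9 replicate 2 (0.176) or Drd4 replicate 1 (0.106). Hb9 and Thy1 were not distinguished (-0.11 ± 0.16, 95% interval -0.46 to 0.24).

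Slitrk6, known for its part in the wiring of the inner ear and in vision, read close to or under the background on every array. It gave 4.80 and 5.26 in Hb9, 3.46 and 3.63 in Drd4, and 4.56 and 5.01 in Thy1, and only Hb9 replicate 2 exceeded its array's reference. The fit passed it as lower in Drd4 than in Thy1 (adjusted p = 0.00341) and as higher in Hb9 than in Drd4 (adjusted p = 0.00138). No fold is given, because 5 of the 6 readings did not exceed the background, and in Drd4 against Thy1 all 4 did not. Its probe set fell out when dim genes were left out, and both calls passed in the other 14 alternatives.

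Slitrk1, a member linked to neurite growth and excitatory synapses, was above background on all arrays. It read 7.22 and 7.45 in Hb9, 7.26 and 7.04 in Drd4, and 7.59 and 8.00 in Thy1. Both lines lay below both Thy1 arrays, but neither difference passed (Hb9 minus Thy1 -0.46 ± 0.19, adjusted p = 0.171, and Drd4 minus Thy1 -0.65 ± 0.19, adjusted p = 0.0885). Between Hb9 and Drd4, which overlapped, the difference was 0.18 ± 0.19 (95% interval -0.23 to 0.60). Slitrk5, whose loss in mice is known for compulsive grooming, read 5.95 and 6.60 in Hb9, 6.65 and 6.29 in Drd4, and 6.70 and 6.58 in Thy1. Its groups overlapped in all 3 comparisons, with differences between -0.37 and -0.17.

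Slitrk2 and Slitrk3 sat near the background throughout. Slitrk2, an organiser of excitatory synapses in cultured neurons, ran from 5.34 to 5.53 over the 6 arrays, and Slitrk3, the organiser of inhibitory synapses, from 5.22 to 5.38. The differences of Slitrk2 lay between -0.16 and 0.08, and none passed. Those of Slitrk3 lay between -0.04 and 0.03, and the widest 95% interval bound was -0.33. At such intensities a change in a low transcript would not be detectable, so these values bound the signal and not the transcript.

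Second probe sets passed the test in the same direction for Lrrtm3, Lrrtm4 and Slitrk4. The second Lrrtm4 probe set read 4.37 and 4.89 in Hb9, 7.02 and 6.21 in Drd4, and 6.16 and 5.85 in Thy1. In the fit over all 45101 probe sets, which called 6.49% of them between Hb9 and Drd4, 6.02% between Hb9 and Thy1 and 3.76% between Drd4 and Thy1, it was at least 2.46-fold lower in Hb9 than in Drd4 (adjusted p = 0.00137) and at least 1.61-fold lower in Hb9 than in Thy1 (adjusted p = 0.0131), with both Hb9 arrays under the reference. The second Slitrk4 probe set read 6.28 and 6.45 in Hb9, 5.01 and 4.76 in Drd4, and 5.78 and 6.17 in Thy1, with a difference of 1.48 ± 0.17 between the lines (adjusted p = 0.000728) and of -1.09 ± 0.17 between Drd4 and Thy1 (adjusted p = 0.00517), where 1 of the 2 Drd4 arrays was above the reference. Set against Thy1, Hb9 gave 0.39 ± 0.17 here, which did not pass (adjusted p = 0.240) and is opposite in sign to the -0.11 of the leading probe set. For Lrrtm3, a second of its 4 probe sets passed. With both Drd4 arrays under the reference, it was at least 1.46-fold lower in Drd4 than in Thy1 (adjusted p = 0.00557) and at least 1.13-fold higher in Hb9 than in Drd4 (adjusted p = 0.0223), and 1 of the 2 Hb9 arrays was above the reference. The remaining Lrrtm3 probe sets did not pass, 1 of them above the reference on 1 array and the other on 0. A second Slitrk2 probe set, at 3.74 to 4.53, was below it on all arrays too.

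For Lrrtm1 and Lrrtm2 the leading probe set stood alone. The other Lrrtm1 probe sets read 4.44 to 5.29 over the 6 arrays and the other Lrrtm2 probe sets 3.82 to 5.56. None of these 4 passed in any comparison. They were above the reference on 2 and 0 arrays for Lrrtm1 and on 5 and 0 arrays for Lrrtm2, so the Lrrtm1 and Lrrtm2 results rest on 1 probe set each.

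**Figure D2:**
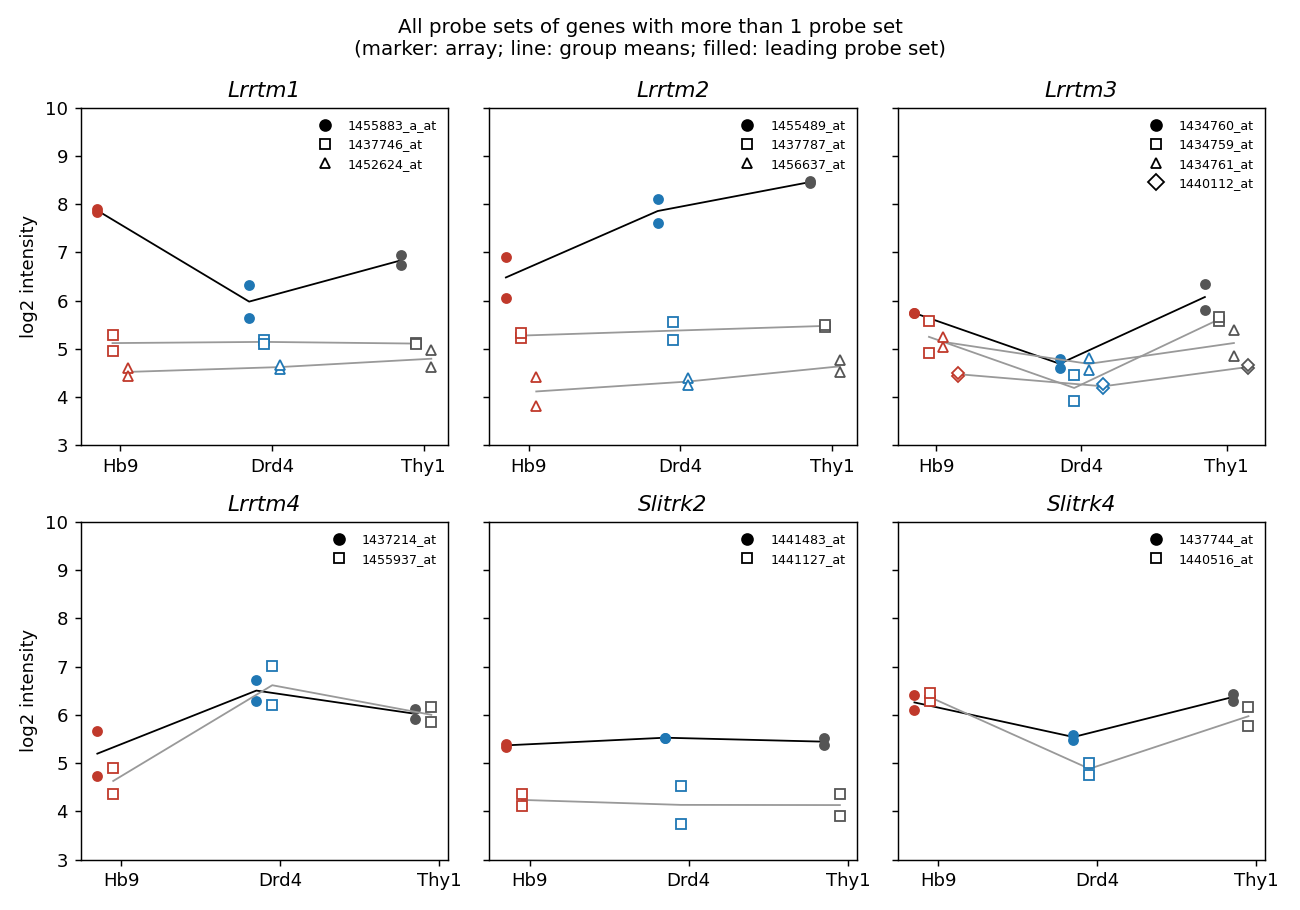
Log2 intensity (vertical axis) of every probe set of the 6 genes with more than 1, in Hb9, Drd4 and Thy1 cells. Each marker is 1 array, lines join group means, and filled markers are the leading probe set. Both probe sets of Lrrtm4 are lowest in Hb9 and both of Slitrk4 lowest in Drd4, while the dim probe sets of Lrrtm1 and Lrrtm2 stay between 3.82 and 5.56.

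The calls of the leading probe sets divided as follows. Of the 10 genes, 4 were higher and 2 lower in Hb9 than in Drd4, where 6.12% of all genes were called (4.06% higher and 2.06% lower). Higher in Hb9 were Lrrtm1, Lrrtm3, Slitrk4 and Slitrk6, and lower were Lrrtm2 and Lrrtm4, so that all 4 Lrrtm genes were called. Against Thy1, Hb9 had 1 higher and 1 lower, Lrrtm1 and Lrrtm2, where 6.71% of all genes were called (3.52% higher and 3.19% lower). Drd4 had 0 higher and 4 lower than Thy1, namely Lrrtm1, Lrrtm3, Slitrk4 and Slitrk6, where 5.47% of all genes were called (1.51% higher and 3.96% lower). In that comparison 6 of the 10 had an unadjusted p under 0.05, beside 4 for Hb9 against Thy1 and 6 for Hb9 against Drd4. No share over all genes is given for these counts, so nothing is read from them. Slitrk6 is counted here although its readings were at the background. The same 2 Thy1 arrays serve in both of these comparisons.

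Arrays did not overlap between Hb9 and Drd4 in 7 of the 10 genes, where 49.7% of all genes did not overlap. The count was 5 for Hb9 against Thy1, where the share of all genes was 54.2%, and 8 for Drd4 against Thy1, where it was 41.1%. The median log2 difference of the 10 genes was 0.07 for Hb9 minus Drd4, -0.22 for Hb9 minus Thy1 and -0.62 for Drd4 minus Thy1. Over all genes these medians were 0.04, 0.04 and 0.02. The members in the last comparison ran from -1.38 to 0.48, with 3 of 10 above 0.

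**Figure D3:**
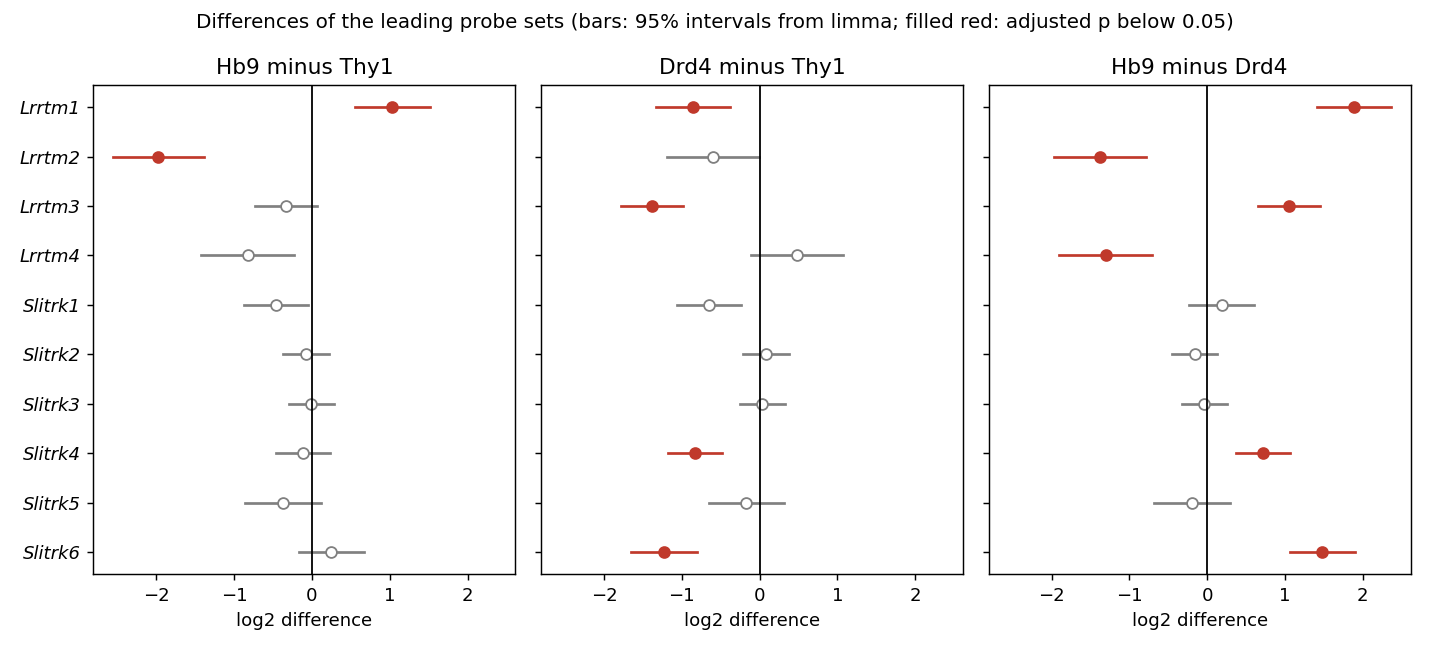
Log2 difference (horizontal axis) of each gene's leading probe set for Hb9 minus Thy1, Drd4 minus Thy1 and Hb9 minus Drd4. Points are estimates from limma, bars are 95% intervals, and filled red points passed at the adjusted threshold of 0.05. In Hb9 minus Drd4, 4 points lie to the right of 0 and 2 to the left among those that passed.

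Genes with the most similar profile were looked up for the 6 genes called in any comparison, by Pearson correlation of log2 intensity over the 6 arrays, among 854 or 855 genes above background on at least 2 arrays whose group means spanned at least 1 log2 unit. With 6 arrays in 3 groups such a correlation describes the order of the groups, and all values share the same arrays. Nearest to Lrrtm1 was Gpc6, a glypican gene (r = 0.989), at 8.65 and 8.78 in Hb9, 6.21 and 5.59 in Drd4, and 7.31 and 7.19 in Thy1, followed by Lats2 and Adgra3. Nearest to Lrrtm2 was Fat1, an atypical cadherin gene (r = 0.989), at 8.10 and 8.64 in Hb9, 9.26 and 9.08 in Drd4, and 9.79 and 9.63 in Thy1, followed by Ptp4a2 and Ptbp3. Lrrtm3 was closest to Chl1, a cell adhesion gene of the L1 family (r = 0.990), at 10.62 and 10.50 in Hb9, 9.57 and 9.77 in Drd4, and 10.56 and 10.86 in Thy1, and then to Rhox5 and Cdh4.

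For Lrrtm4 the nearest genes were Kmt2a (r = 0.972), Tmem30a and A230070E04Rik. Slitrk4 was nearest to C630043F03Rik (r = 0.993), Synpo2 and the potassium channel gene Kcnd2, and Slitrk6 to Msantd1 (r = 0.989), Khdrbs3 and Car3. Among the 10 genes themselves, Slitrk4 followed Slitrk6 (r = 0.959) and Lrrtm3 (r = 0.954), and all 3 were called lower in Drd4 than in Hb9 and Thy1. The Slitrk6 readings behind these correlations exceeded the background reference on only 1 of the 6 arrays. Lrrtm1 ran against Lrrtm4 (r = -0.775).

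By RefSeq, 3 of the Lrrtm genes lie within alpha-catenin genes, Lrrtm1 in Ctnna2, Lrrtm2 in Ctnna1 and Lrrtm3 in Ctnna3, while Lrrtm4 and the Slitrk genes lie within no coding gene. Slitrk1, Slitrk6 and Slitrk5 follow one another on chromosome 14. Alpha-catenins link cadherins to actin. Ctnna2 read 7.86 and 7.64 in Hb9, 7.51 and 7.56 in Drd4, and 7.71 and 7.77 in Thy1, and its difference of 0.22 ± 0.15 between the lines did not pass, where Lrrtm1 differed by 1.89. Ctnna1 read 6.84 and 6.57 in Hb9, 5.39 and 5.03 in Drd4, and 7.48 and 8.08 in Thy1.

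Ctnna1 was thus higher in Hb9 than in Drd4 (1.49 ± 0.22, adjusted p = 0.00304), opposite in sign to Lrrtm2 (-1.38). It was lower than Thy1 in Hb9 (-1.08 ± 0.22, adjusted p = 0.0186) and in Drd4 (-2.57 ± 0.22, adjusted p = 0.000108). A second Ctnna1 probe set was also lower than Thy1 in both lines (-1.18 ± 0.22 and -1.77 ± 0.22) but did not pass between them (0.59 ± 0.22, adjusted p = 0.164). The leading one is of a kind that can bind related transcripts. The call of a Ctnna1 fall in Hb9 was lost without Hb9 replicate 1 (difference -1.21), Hb9 replicate 2 (-0.94) or Thy1 replicate 2 (-0.78). The call between the lines was lost when the Ctnna1 probe sets were averaged (0.50, adjusted p = 0.0871). Ctnna3 was at 4.74 to 5.12 on all arrays and passed nowhere, where Lrrtm3 passed in both comparisons with Drd4. Whether the array's probe sets read the transcripts of nested genes separately was not tested.

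Of 10 measured partners of these proteins, 1 was higher and 2 were lower in Hb9 than in Drd4. Against Thy1, 1 was higher and 2 were lower in Hb9, and 1 was higher in Drd4. The shares of all genes called in these 3 comparisons were 6.12%, 6.71% and 5.47%. The medians of the 10 partners were -0.14, 0.11 and 0.21. Without Hb9 replicate 1, Hb9 replicate 2 or Thy1 replicate 1, fewer of the 10 passed between Hb9 and Thy1, and fewer of all genes did too. The same held between Hb9 and Drd4 without either Hb9 array. Ptprd, a LAR-family phosphatase bound by SLITRK proteins, read 11.43 and 11.62 in Hb9, 12.04 and 11.96 in Drd4, and 11.35 and 11.39 in Thy1. It was 1.55-fold higher in Drd4 than in Thy1 (0.63 ± 0.11, adjusted p = 0.00584), which passed in all 15 alternatives. The gap of -0.48 ± 0.11 between Hb9 and Drd4 (adjusted p = 0.0282) was lost in 7, among them without any 1 of the Hb9 and Drd4 arrays (adjusted p = 0.0533 to 0.287). Its relatives Ptprs and Ptprf and the neurexin genes Nrxn2 and Nrxn3 passed in no comparison.

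Sdc2 and Gpc4, which encode carriers of heparan sulphate, were lower in Hb9 than in Thy1, and Sdc2 also lower than in Drd4. Sdc2, a syndecan gene, read 6.03 and 6.24 in Hb9, 7.45 and 7.03 in Drd4, and 7.05 and 7.16 in Thy1, so that both Hb9 arrays were below the rest. It was lower than Drd4 by 2.15-fold (-1.11 ± 0.18, adjusted p = 0.00546) and than Thy1 by 1.96-fold (-0.97 ± 0.18, adjusted p = 0.0125). Without Hb9 replicate 1 both Sdc2 calls were lost (adjusted p = 0.0603 and 0.109), and the call against Thy1 was also lost without Thy1 replicate 1 (0.0574). Gpc4, a glypican gene whose product binds LRRTM4, was lower in Hb9 than in Thy1 (-0.58 ± 0.15, adjusted p = 0.0468), a call lost in 7 alternatives, such as without any 1 Hb9 or Thy1 array (adjusted p = 0.103 to 0.222). Its difference of -0.22 between Hb9 and Drd4 did not pass (adjusted p = 0.483). Ppfia2, which encodes a liprin scaffold of the LAR phosphatases, was higher in Hb9 than in Drd4 (0.98 ± 0.16, adjusted p = 0.00530) and than in Thy1 (0.70 ± 0.16, adjusted p = 0.0279). Leaving out Hb9 replicate 2 ended the first call (adjusted p = 0.0566), and the second was lost in 6 alternatives, among them without any 1 Hb9 or Thy1 array (adjusted p = 0.0527 to 0.171). When its probe sets were averaged the Ppfia2 differences were 0.26 and 0.12, and neither passed.

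Other organisers with leucine-rich repeats or neurexin partners passed in both directions. Of 27 measured, 1 was higher and 3 were lower in Hb9 than in Drd4, 1 was higher and 1 lower in Hb9 than in Thy1, and 5 were higher and 2 lower in Drd4 than in Thy1. Over all genes 6.12%, 6.71% and 5.47% were called in these comparisons. The medians were 0.05, 0.03 and 0.05. Cbln4, a secreted cerebellin, read 9.20 and 9.86 in Hb9, 5.41 and 6.77 in Drd4, and 7.39 and 7.01 in Thy1. It was 10.9-fold higher in Hb9 than in Drd4 (3.44 ± 0.38, adjusted p = 0.000557), in all 15 alternatives. Flrt3, a ligand of Unc5 receptors and latrophilins, read 7.08 and 7.21 in Hb9, 9.48 and 9.16 in Drd4, and 7.58 and 7.43 in Thy1. It was 4.52-fold lower in Hb9 than in Drd4 (-2.18 ± 0.17, adjusted p = 5.68e-05) and 3.51-fold higher in Drd4 than in Thy1 (1.81 ± 0.17, adjusted p = 0.000180), again in all 15.

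Elfn1, which recruits presynaptic glutamate receptors in trans, was 3.15-fold lower in Drd4 than in Thy1 (-1.66 ± 0.27, adjusted p = 0.00446), also in all 15 alternatives. Nlgn1, a neuroligin of excitatory synapses, was lower in Hb9 than in Drd4 (-0.93 ± 0.17, adjusted p = 0.0118), a call lost without Hb9 replicate 1 (0.103) or Drd4 replicate 1 (0.0553). With Drd4 replicate 1 or either Thy1 array left out, fewer of the 27 passed between Drd4 and Thy1. Over all genes calls were lost there too, but a smaller part of them. With Drd4 replicate 1 left out, fewer of the 27 and of all genes passed between Hb9 and Drd4. Between Hb9 and Thy1 fewer of both passed without Hb9 replicate 1 or Thy1 replicate 1. More of both passed there without Thy1 replicate 2 or either Drd4 array.

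Of 19 measured genes of the excitatory postsynaptic density, which LRRTM proteins help to assemble, limma called 0 between Hb9 and Drd4, 1 between Hb9 and Thy1 and 0 between Drd4 and Thy1. An unadjusted p under 0.05 was reached by 5, 4 and 4, counts for which no share over all genes is given. Over the 15 alternatives the counts reached 1, 1 and 2. The 1 call was the scaffold gene Dlg2, higher in Hb9 than in Thy1 (0.63 ± 0.14, adjusted p = 0.0254). It was lost without any 1 Hb9 or Thy1 array, where the difference was 0.56 to 0.69. The Dlg2 call was also lost when its probe sets were averaged (0.30, adjusted p = 0.193). With averaged probe sets 1 gene of this list passed between Hb9 and Thy1, and it was lower in Hb9. Of 10 measured genes of the inhibitory postsynapse, 3 were higher in Hb9 than in Drd4, 3 were higher in Hb9 than in Thy1, and 1 was lower in Drd4 than in Thy1, where 6.12%, 6.71% and 5.47% of all genes were called. Gabra3, a GABA-A receptor subunit gene, was 2.63-fold higher in Hb9 than in Drd4 (1.39 ± 0.16, adjusted p = 0.000752), in all 15 alternatives. Fewer of the 10 passed between Hb9 and Thy1 without Hb9 replicate 1, Hb9 replicate 2 or Thy1 replicate 1, as did fewer of all genes. With averaged probe sets 1 passed there, and it was lower in Hb9. Between Drd4 and Thy1, 0 passed with dim genes left out. That fit did not include Glra3, the 1 gene of this list called in that comparison.

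**Figure D4:**
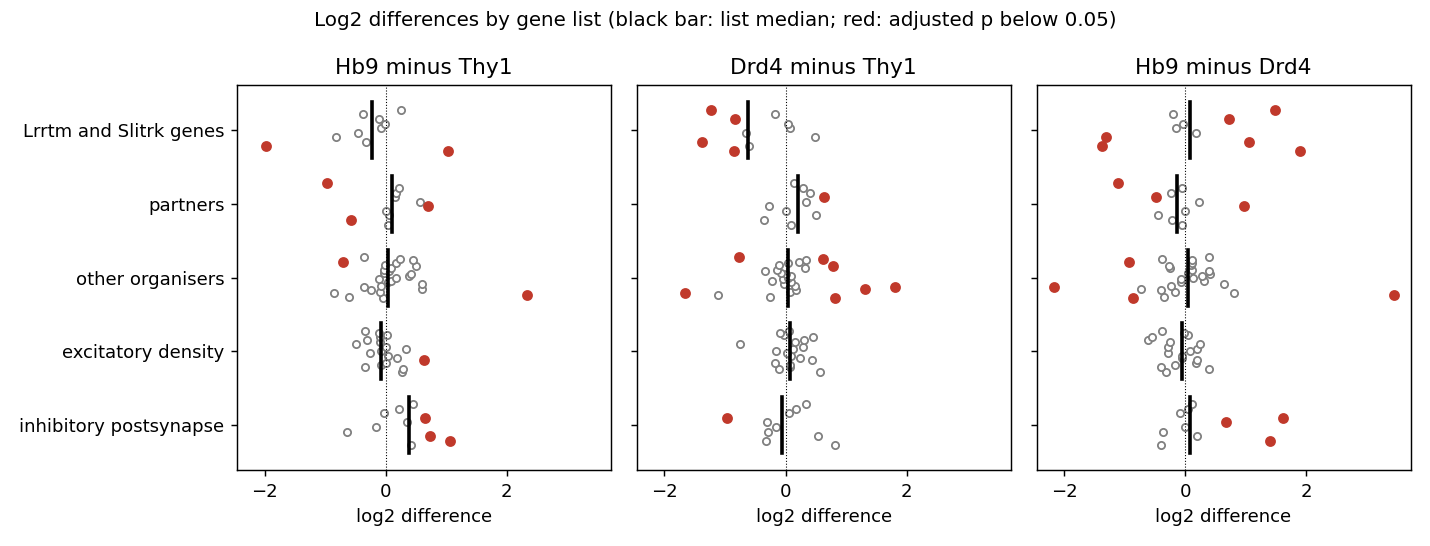
Log2 difference (horizontal axis) of each measured gene in 5 gene lists (rows) for Hb9 minus Thy1, Drd4 minus Thy1 and Hb9 minus Drd4. Each point is 1 gene, red points passed at the adjusted threshold of 0.05, and black bars are list medians. The Lrrtm and Slitrk genes have a median of -0.62 in Drd4 minus Thy1, and in Hb9 minus Drd4 their 6 red points lie on both sides of 0.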

How the data were processed

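The authors deposited linear intensities for each probe set of 6 arrays. Per the labels' protocols the RNA was amplified in 2 rounds and biotin-labelled. The software, background correction and normalisation behind them are not stated in the labels. Log2 was taken without an offset. Of 45101 probe sets, 64 are controls, 34945 map to 1 gene, 932 to several and 9160 to no named gene. The annotation's symbols were checked by Entrez identifier against RefSeq, and 0 changed. Keeping the leading probe set of each gene gave 18193 genes.

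Group means were fitted with limma 3.58.1 in R 4.3.3, with an intensity trend in the moderation and 3 residual degrees of freedom. Tests were two-sided, with Benjamini-Hochberg adjustment over all genes at 0.05. Errors after ± are standard errors, n = 2 arrays in each group, and the number of arrays limits the precision. "At least" folds use the background reference in place of dimmer readings. The procedure was also run on simulated arrays with known changes. The outcome is not given here, so it says nothing about the calls above.

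The gene list, the related lists and the tests were chosen with earlier results of these data known. All 10 genes were to be named, with up to 4 called genes of each related list per comparison, the alpha-catenins, and 3 genes of most similar profile for each called member. Not every called list gene is described in the text. Some genes of the related lists are not reported here. The 15 alternatives were quantile normalisation, centring on array medians, the mean of all probe sets, a fit over all probe sets, dim genes left out, no intensity trend, robust moderation, an offset of 16 before log2, the replicate number as a block, and each array left out in turn.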

Additional observations from a re-analysis of the deposited data

Results flagged for a closer look

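For 3 of the genes the fitted difference from Thy1 ran in opposite directions in Hb9 and Drd4, and the difference between the lines passed the test. In Lrrtm1 the value for Hb9 exceeded that for Drd4 by 1.89 on the log2 scale. For Slitrk6 the fitted gap was 1.48, but 5 of 6 readings were at or below the background reference, all 4 from Drd4 and Thy1 among them, so neither its size nor its direction from Thy1 is measured. In Lrrtm4 the value was -1.31. The differences from Thy1 themselves did not pass in either line for Lrrtm4, or in Hb9 for Slitrk6.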

How the results depend on the processing

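Over the 10 genes, 3 comparisons and their alternatives, 411 values kept their direction and side of the threshold, 24 were no longer past it, 2 newly passed and 10 changed sign, all 10 in differences not called either way. With dim genes left out, 2 of the genes that remained passed between Drd4 and Thy1. Slitrk6 was not in that limma fit, and Lrrtm1 had an adjusted p of 0.0501. With each array left out in turn, 3 to 6 of the 10 passed between Hb9 and Drd4 (3 without Drd4 replicate 1), 1 to 2 between Hb9 and Thy1 (1 without Hb9 replicate 1 or Thy1 replicate 1) and 2 to 4 between Drd4 and Thy1 (2 without Thy1 replicate 2). Over all genes the counts were 411 to 1244, 315 to 1633 and 666 to 922. Between the lines they fell to 411 with Hb9 replicate 1 left out, to 532 with Hb9 replicate 2 and to 689 with Drd4 replicate 1, and for Hb9 against Thy1 to 315 with Hb9 replicate 1 left out, to 441 with Hb9 replicate 2 and to 380 with Thy1 replicate 1. The cause was not tested.

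With the replicate number as a block, 6, 2 and 3 of the 10 genes and 1030, 1156 and 985 of all genes passed in those comparisons. Same-numbered arrays deviated with correlations of -0.28 (Hb9 and Drd4), -0.19 (Hb9 and Thy1) and 0.37 (Drd4 and Thy1), not all above 0.1, and the labels tie no number to a shared day or batch, so the arrays were not treated as pairs.

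Changes of sign in Hb9 minus Thy1 were those of Slitrk3 with quantile normalisation (0.046) and centring (0.043), of Ctnna2 with quantile normalisation (-0.10), and of Slitrk2 (0.015) and Slitrk4 (0.14) with averaged probe sets. Leaving out 1 array moved that difference between -0.087 and 0.075 for Slitrk3, -0.27 and 0.050 for Slitrk4 and -0.10 and 0.12 for Ctnna2. In Drd4 minus Thy1 the ranges were -0.048 to 0.11 for Slitrk3, -0.35 to 0.012 for Slitrk5 and -0.19 to 0.023 for Ctnna3, and in Hb9 minus Drd4 -0.53 to 0.13 for Slitrk5. Signals near the background reference limit Slitrk2, Slitrk3 and Slitrk6.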
